A study of Homo sapiens with 30 samples.

Results

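The results below describe how Wnt3a and CPI-203 combined at 24 h in RUES2 cells, an established human embryonic stem cell line. The quantity is the interaction of the 2 agents: the log2 difference between cells given both agents and cells given CPI-203 alone (WNT_CPI minus E7_CPI), minus the log2 difference between cells given Wnt3a alone and untreated cells (WNT minus E7). A value of 0 means that the 2 log2 differences added up, a negative value that WNT_CPI lay below that sum, and a positive value that it lay above it. It was taken for all 17355 genes tested, from 8 of the series' 30 samples: 2 RNA libraries each of E7 (TeSR E7 medium with ROCK inhibitor, neither agent), E7_CPI (CPI-203 at 1 µM), WNT (Wnt3a at 100 ng/mL) and WNT_CPI (both agents at those doses). The other RNA libraries were collected at 48 h, after Activin A at 10 ng/mL (E7_ACT, WNT_ACT, WNT_CPI_ACT) or medium without it (WNT_E7) on the second day, and entered the fit to estimate the spread. All 16 RNA libraries came from this 1 line. The labels do not say whether replicates were separate cultures, so the p-values reflect the spread among these libraries alone, which may be technical.

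Wnt ligands bind Frizzled and LRP receptors, which stops the destruction of beta-catenin. Beta-catenin then enters the nucleus and works with TCF and LEF factors at target genes, among them negative regulators of the pathway itself such as AXIN2. In human pluripotent cells this pathway starts the exit towards primitive streak and mesoderm. CPI-203 is an inhibitor of the BET bromodomain proteins, which bind acetylated histones and help RNA polymerase II to move from the promoter into the gene.

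The E7_CPI library labelled replicate 1 went against its label, and every interaction value rests in part on it. As deposited, it correlated with no other library (absolute Spearman correlations of at most 0.00657). With its values assigned to the genes as the replicate 2 table lists them, it correlated at 0.954 to 0.986 with the other libraries, highest with E7_CPI replicate 2 (0.986). Its correlation was 0.983 with WNT_CPI replicate 2 and 0.977 with WNT_CPI replicate 1. The 20 genes with the most counts held 8.99% of its counts. They held 8.87% in E7_CPI replicate 2, 8.79% in WNT_CPI replicate 2 and 7.22% in WNT_CPI replicate 1. The counts of these 2 columns differed by more than sampling noise (chi-square per degree of freedom 3.25 over 15507 genes), so they were entered as 2 libraries, but they lay far nearer to each other than the replicates of the other 7 groups (96.9 to 163.7). The shift that separated replicate 1 from replicate 2 in the other groups (correlation of deviations 0.536 to 0.885 in 21 pairs of groups) was not shared by this pair (-0.12 to -0.05 in 7 pairs of groups). If both columns carry the replicate 2 side of that shift, part of it enters the interaction with and without the block, which was not tested. Because the 2 columns lay so near each other, the E7_CPI spread does not stand for that between the replicates of another group. Fits with both columns nevertheless count them as 2 independent libraries, so the p-values from these fits may be too small. Results are given also with E7_CPI replicate 2 alone.

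Library totals at 24 h ran from 36268324 to 43347733 counts, with 15478 to 16327 genes at 10 counts or more. POU5F1 and LIN28A, markers of the label, were present in all 8 libraries. POU5F1 stood at 238 to 721 CPM (counts scaled to a common library total) and LIN28A at 1633 to 2736 CPM. The 23 pluripotency genes tested had a median log2 difference with CPI-203 of -1.56 without Wnt3a and -1.86 with it. NANOG, a core pluripotency factor, was at 71.6 to 196.3 CPM in the 4 libraries without CPI-203 and at 0.809 to 1.31 CPM in the 4 with it. HEXIM1, which holds P-TEFb inactive and is known to rise when BET proteins are inhibited, was at 69.8 to 87.5 CPM without and 277 to 309 CPM with CPI-203. Summed levels of markers of other cell types were lower with CPI-203 in 2 of 3 lists. The summed level of 12 trophoblast and amnion markers was 31.5 to 37.1 CPM without and 15.8 to 20.2 CPM with it, and that of 11 blood and endothelium markers 60.2 to 69.8 CPM without and 14.8 to 21.7 CPM with it. A few genes carried these sums: TEK reached 2571 counts in a library and no other blood and endothelium marker more than 149, and the tested trophoblast and amnion markers had a median difference between E7_CPI and E7 of 0.49 on the log2 scale although their sum was lower. Of 10 fibroblast markers, DCN and FAP had no count in any of the 8 libraries, and the summed level was 484 to 922 CPM without and 383 to 698 CPM with CPI-203, so that these ranges overlapped. The part of these markers in the results was not tested, and in bulk RNA fewer cells of a type and less RNA per cell cannot be told apart.

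Across the 17355 genes the median interaction was -0.02, and 5th to 95th percentiles ran from -0.79 to 1.12. At a mean level of at least 1 CPM (13850 genes), 399 genes differed between WNT and E7 by at least 2-fold. Of these, 334 (83.7%) had a difference of the same sign in the presence of CPI-203, and 137 (34.3%) one of the same sign and at least 2-fold. These genes were picked on the first difference, which by itself makes the second smaller on average. More genes differed with CPI-203: 3229 did so by at least 2-fold between E7_CPI and E7, and 2406 of them (74.5%) by as much and with the same sign between WNT_CPI and WNT. Over these 13850 genes the 2 Wnt3a differences had a Pearson r of 0.516 and the 2 CPI-203 differences one of 0.907. The differences in each pair came from separate libraries, and genes are not independent replicates.

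**Figure D1:**
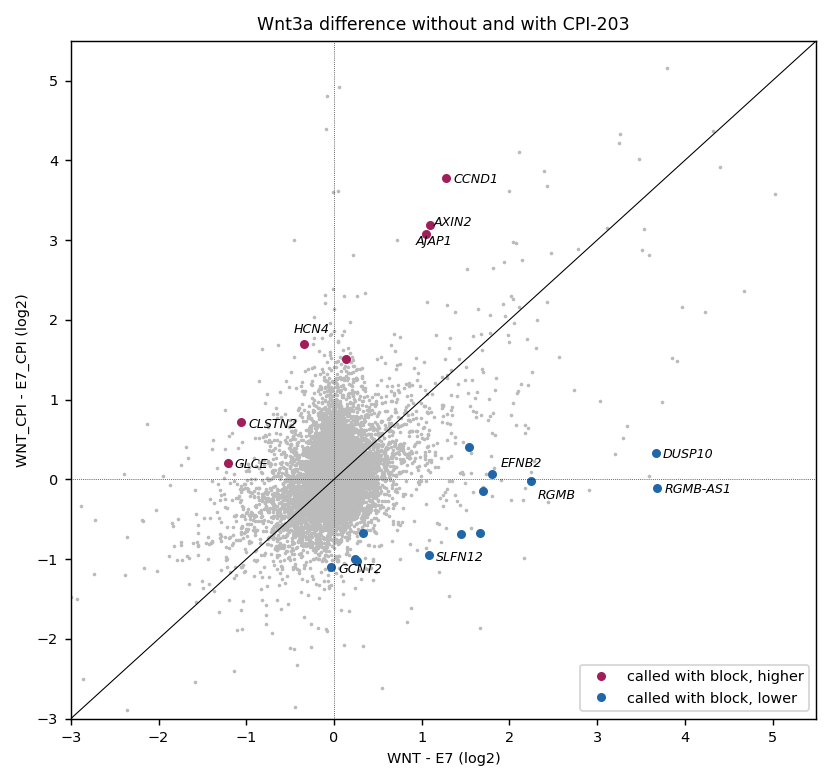
The log2 difference WNT minus E7 (horizontal axis) is plotted against WNT_CPI minus E7_CPI (vertical axis) for genes at a mean of at least 1 CPM, each point 1 gene and the diagonal an interaction of 0; 15 genes lie outside the axes, which run from -3 to 5.5. The 13 genes called lower (blue) lie below the diagonal, with DUSP10 and RGMB-AS1 at 3.67 and 3.68 on the horizontal axis and near 0 on the vertical one, and CCND1, AXIN2 and AJAP1 (red) lie above it.

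The first test of the interaction took no account of replicate numbers. In this edgeR quasi-likelihood F-test over 8 groups, 2 genes were called lower at an adjusted p under 0.05 (0.0115% of genes tested), DUSP10 and RGMB-AS1, and 0 were called higher (0%; 14 with DESeq2 and 2 with limma-trend). At an unadjusted p under 0.05, 207 genes were higher (1.19%) and 235 lower (1.35%). With the replicate number as a block, 9 genes were called higher (0.0519%) and 13 lower (0.0749%), and at an unadjusted p under 0.05, 588 were higher (3.39%) and 851 lower (4.9%). Of these 22, 20 are described, 7 higher and 13 lower.

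How many genes the block called depended on the E7_CPI columns. With E7_CPI replicate 2 alone, 6 of the 20 were called (DUSP10, RGMB, RGMB-AS1, CCND1, SLFN12 and HCN4), and with both columns given number 2, all 20 were called. With the column labelled replicate 1 alone, far more genes were called. That fit blocks the column as replicate 1, whose shift it did not share, so the difference between replicates can enter these calls. They are not read as interactions. DUSP10, RGMB, RGMB-AS1 and CCND1 were called with the block in all 6 fits that left out 1 library of E7, WNT or WNT_CPI, and each of the other 16 in 0 or 1 of them.

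DUSP10, a phosphatase that switches off the p38 and JNK kinases, responded to each agent alone and hardly to Wnt3a in the presence of CPI-203. It lies on chromosome 1 (Entrez gene 11221). Its level was 0.739 and 0.597 CPM in the E7 replicates, 3.05 and 2.87 CPM in E7_CPI, 8.58 and 8.45 CPM in WNT, and 3.11 and 4.36 CPM in WNT_CPI. No groups overlapped: every library with an agent was above both E7 libraries, and WNT_CPI lay just above E7_CPI and well below WNT. WNT exceeded E7 by 3.67 on the log2 scale, and WNT_CPI exceeded E7_CPI by 0.33. Had the log2 differences added, WNT_CPI would have stood at 37.7 CPM, against the observed mean of 3.73 ± 0.88 (SD, n = 2). The interaction was -3.33 (SE 0.29, edgeR adjusted p = 0.00369 without and 0.00202 with the block). Fitted to the 24 h groups alone it was -3.32 without the block (edgeR adjusted p = 0.0778) and -3.33 with it (0.0414). With E7_CPI replicate 2 alone it was -3.29 with the block (adjusted p = 0.00847), and without the block adjusted p was 0.0392. Leaving out E7 replicate 2, in which DUSP10 had 25 counts, gave -3.19 and an edgeR adjusted p of 0.0583 without the block and 0.0184 with it.

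RGMB, a membrane-anchored co-receptor for BMP ligands, was higher with Wnt3a alone and hardly differed with Wnt3a once CPI-203 was present. It lies on chromosome 5 (Entrez gene 285704). Its level was 24.1 and 22.2 CPM in E7, 35.2 and 35.5 CPM in E7_CPI, 109 and 111 CPM in WNT, and 30.8 and 39.1 CPM in WNT_CPI. Both WNT libraries stood far above the rest, and the E7_CPI values lay between those of WNT_CPI. The Wnt3a difference was 2.24 on the log2 scale without CPI-203 and -0.02 with it, and the sum of the log2 differences would have put WNT_CPI at 168 CPM in place of 34.95 ± 5.93 (SD, n = 2). The interaction was -2.26 (SE 0.30). It was not called without the block (edgeR adjusted p = 0.0715) and was called with it (adjusted p = 0.00202, and 0.00847 with E7_CPI replicate 2 alone).

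RGMB-AS1, a long non-coding RNA on chromosome 5 (Entrez gene 503569), had the most negative interaction of the 20 genes. In the RefSeq table it lies within RGMB on the opposite strand. The counting is not stated to use strand, so reads of RGMB and RGMB-AS1 cannot be told apart where they overlap. The levels of RGMB-AS1 were 0.858 and 0.836 CPM in E7, 0.796 and 0.753 CPM in E7_CPI, 13.4 and 8.45 CPM in WNT, and 0.612 and 0.827 CPM in WNT_CPI. Only the WNT libraries stood out, and the 25 and 34 counts in WNT_CPI were near the 27 to 36 counts in E7 and E7_CPI. The Wnt3a difference of RGMB-AS1 was 3.68 without and -0.11 with CPI-203, an interaction of -3.79 (SE 0.37, edgeR adjusted p = 0.00652 without and 0.00358 with the block). With E7_CPI replicate 2 alone the adjusted p was 0.0618 without and 0.0324 with the block. Without the block the call was also lost on leaving out E7 replicate 1 (adjusted p = 0.0807), E7 replicate 2 (0.0865) or WNT_CPI replicate 1 (0.0707). Fitted to the 24 h groups alone, RGMB-AS1 was not called without the block (adjusted p = 0.105) or with it (0.0812).

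CCND1, which encodes cyclin D1, the partner of CDK4 and CDK6 at entry into the cell cycle, went the other way. The gene lies on chromosome 11 (Entrez gene 595). Its level was 161 and 180 CPM in E7, 45.9 and 48.9 CPM in E7_CPI, 360 and 468 CPM in WNT, and 664 and 637 CPM in WNT_CPI. The 4 groups did not overlap: CPI-203 went with the lowest levels in the absence of Wnt3a and with the highest in its presence. CCND1 was 1.85 lower on the log2 scale in E7_CPI than in E7, and 0.65 higher in WNT_CPI than in WNT. Its Wnt3a difference was 1.28 without and 3.78 with CPI-203, and the added log2 differences would have given 115 CPM in WNT_CPI in place of 651 ± 19 (SD, n = 2). The interaction was 2.50 (SE 0.34), with an edgeR adjusted p of 0.0715 without and 0.00248 with the block (0.0101 with E7_CPI replicate 2 alone).

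**Figure D2:**
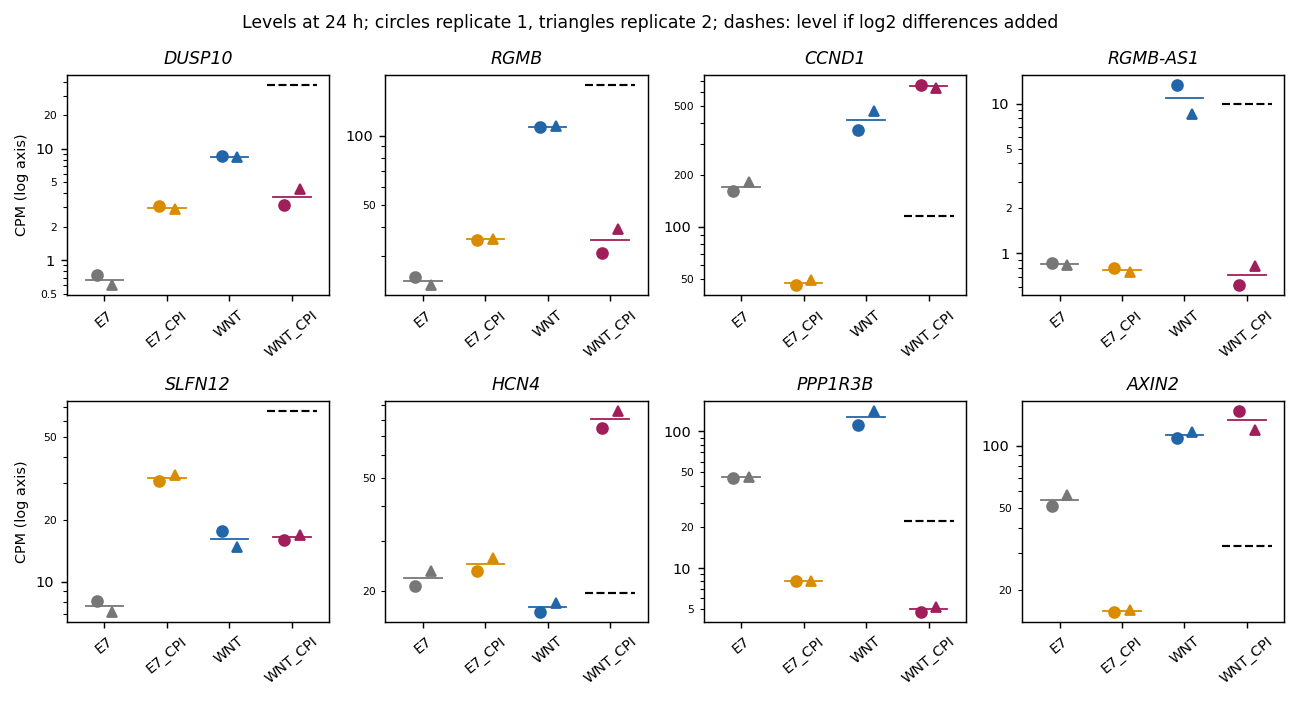
Each panel shows 1 gene's level in CPM (log axis) in the 4 groups at 24 h, with circles for replicate 1, triangles for replicate 2, a coloured line at the group mean and a dashed line at the WNT_CPI level that would follow if the log2 differences added. In DUSP10, RGMB and RGMB-AS1 both WNT_CPI points lie below the dashed line (37.7, 168 and 9.98 CPM), and in CCND1, HCN4 and AXIN2 they lie above it (115, 19.7 and 32.7 CPM).

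The 250 bases before the start of 4 genes are shown because these were the called genes with the lowest p in the block fit among the 14 that have an entry in the RefSeq promoter table (GRCh38.p14). The windows are chr1:221742090-221742339 (minus strand) for DUSP10, chr5:98768382-98768631 (plus) for RGMB, chr17:35433175-35433424 (minus) for SLFN12 and chr15:73368959-73369208 (minus) for HCN4. Capitals mark the GC box GGGCGG or its reverse complement CCGCCC.
DUSP10: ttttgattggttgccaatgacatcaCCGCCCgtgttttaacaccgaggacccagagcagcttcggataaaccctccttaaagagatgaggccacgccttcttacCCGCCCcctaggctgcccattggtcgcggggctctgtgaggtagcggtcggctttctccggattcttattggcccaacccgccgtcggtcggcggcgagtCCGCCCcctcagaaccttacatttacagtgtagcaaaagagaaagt
RGMB: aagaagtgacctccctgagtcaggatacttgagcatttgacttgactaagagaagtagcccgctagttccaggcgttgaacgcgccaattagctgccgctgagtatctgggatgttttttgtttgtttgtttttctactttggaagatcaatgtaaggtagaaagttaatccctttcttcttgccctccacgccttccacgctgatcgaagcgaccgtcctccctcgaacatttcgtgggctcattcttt
SLFN12: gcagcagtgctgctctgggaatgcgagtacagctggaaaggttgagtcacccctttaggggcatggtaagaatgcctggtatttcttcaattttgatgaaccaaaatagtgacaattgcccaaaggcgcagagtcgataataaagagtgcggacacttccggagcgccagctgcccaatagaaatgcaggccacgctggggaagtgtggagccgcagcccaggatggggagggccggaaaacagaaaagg
HCN4: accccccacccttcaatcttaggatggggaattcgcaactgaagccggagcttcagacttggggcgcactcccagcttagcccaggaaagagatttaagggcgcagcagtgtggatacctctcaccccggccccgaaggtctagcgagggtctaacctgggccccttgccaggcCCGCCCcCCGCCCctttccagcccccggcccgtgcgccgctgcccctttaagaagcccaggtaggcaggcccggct
GC boxes began 225, 146 and 46 bases before the start of DUSP10 and 76 and 69 bases before that of HCN4. The windows shown for RGMB and SLFN12 held none, and both of these genes were called lower, as was DUSP10. Each window shown is that of the gene's most upstream RefSeq start, and any other window of these genes is not shown. Searched on both strands, GGGCGG was in 42.6% of the 35116 windows of this length in the table and in 15 of the 25 windows (60%) of the 14 genes. The TCF and LEF core CTTTGAT was in 2.26% of all windows and in 0 of these 25. The 2 motifs do not overlap in sequence, several windows of a gene can overlap, and a match is a description of letters only.

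Of the other 16 genes, 10 had a negative and 6 a positive interaction, from -2.35 (SERTAD4) to 2.10 (AJAP1), with edgeR adjusted p from 0.00799 to 0.0497 with the block and from 0.0905 to 0.995 without it. The calls depended on single libraries as given above. Over the 20, 9 of the 13 genes called lower differed by at least 2-fold between WNT and E7 and by less between WNT_CPI and E7_CPI, as DUSP10 did. Their Wnt3a differences with CPI-203 ran from -0.95 (SLFN12) to 0.40 (LDB2) on the log2 scale, with PPP1R3B at -0.69 and SERTAD4 at -0.68. Among the 7 called higher, 3 differed at least 2-fold in the same direction both ways (CCND1, AXIN2, AJAP1), 2 reached that limit with CPI-203 and not without it (HCN4, ANP32A), and 2 reached it without CPI-203 and not with it (GLCE, CLSTN2).

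SLFN12, a member of the Schlafen family, was above its E7 level in all libraries with an agent, and no higher with both agents than with CPI-203 alone. It stood at 8.08 and 7.19 CPM in E7, 30.7 and 32.9 CPM in E7_CPI, 17.5 and 14.7 CPM in WNT, and 15.97 and 16.9 CPM in WNT_CPI. The WNT and WNT_CPI libraries overlapped, and E7_CPI lay above both. The interaction of SLFN12 was -2.03 (SE 0.29, edgeR adjusted p = 0.0905 without and 0.00799 with the block).

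PPP1R3B, EFNB2, SERTAD4, LDB2 and BMP4 each had a Wnt3a difference of at least 1 on the log2 scale that was not seen with CPI-203, from very different CPI-203 levels. PPP1R3B, which targets protein phosphatase 1 to glycogen, stood at 45.9 and 46.7 CPM in E7, 8.10 and 8.06 CPM in E7_CPI, 111 and 141 CPM in WNT, and 4.80 and 5.21 CPM in WNT_CPI. Its Wnt3a difference was 1.45 without and -0.69 with CPI-203 (interaction -2.14). EFNB2, the ephrin-B2 ligand of Eph receptors, was instead highest with CPI-203: 24.2 and 21.0 CPM in E7, 277 and 285 CPM in E7_CPI, 82.2 and 75.3 CPM in WNT, and 250 and 339 CPM in WNT_CPI. The EFNB2 groups with CPI-203 overlapped, and the interaction was -1.73. SERTAD4 and LDB2, a cofactor of LIM-domain proteins, were low wherever CPI-203 was present. SERTAD4 was at 3.63 ± 0.14 CPM in E7, 0.899 ± 0.069 in E7_CPI, 11.5 ± 1.2 in WNT and 0.561 ± 0.135 in WNT_CPI (SD, n = 2 each), an interaction of -2.35. LDB2 was at 41.7 ± 9.4 CPM in E7, 6.18 ± 0.01 in E7_CPI, 120.7 ± 16.1 in WNT and 8.16 ± 0.70 in WNT_CPI, an interaction of -1.13. BMP4, a ligand of the receptors that RGMB assists, resembled RGMB: 2.07 and 2.87 CPM in E7, 2.91 and 2.73 CPM in E7_CPI, 7.24 and 8.81 CPM in WNT, and 2.42 and 2.68 CPM in WNT_CPI. Only the WNT libraries of BMP4 stood apart from the rest, with an interaction of -1.84 and an edgeR adjusted p of 0.724 without and 0.0497 with the block.

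The remaining genes called lower were GCNT2, KRT18, CDC42EP3 and ADCY2, whose Wnt3a differences without CPI-203 were small (-0.03 to 0.33). GCNT2, an enzyme that branches poly-N-acetyllactosamine chains, was at 113.5 and 125 CPM in E7 and 112 and 121 CPM in WNT, and at 53.2 and 54.8 CPM in E7_CPI and 22.6 and 27.8 CPM in WNT_CPI. KRT18, a keratin of simple epithelia, was at 218 and 316 CPM in E7, 359 and 353 CPM in E7_CPI, 274 and 367 CPM in WNT, and 164 and 187 CPM in WNT_CPI. WNT_CPI was the lowest of the 4 groups for both genes, with no overlap with another group. CDC42EP3, an effector of the small GTPase CDC42, had an interaction of -1.0, and ADCY2, an adenylyl cyclase, one of -1.23.

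AXIN2, a scaffold of the complex that destroys beta-catenin and a feedback target of the pathway, had the pattern of CCND1. It stood at 51.0 and 57.6 CPM in E7, 15.6 and 15.9 CPM in E7_CPI, 108 and 116 CPM in WNT, and 147 and 120 CPM in WNT_CPI. Both libraries with CPI-203 alone were the lowest, and both with the 2 agents were the highest. The Wnt3a difference of AXIN2 was 1.05 without and 3.08 with CPI-203. The interaction of AXIN2 was 2.03 (SE 0.30, edgeR adjusted p = 0.0905 without and 0.0215 with the block). In the fit with the block and E7_CPI replicate 2 alone it was 1.96, and AXIN2 was not called. AJAP1, a protein of adherens junctions, was at 9.77 and 8.31 CPM in E7, 2.58 and 2.82 CPM in E7_CPI, 18.9 and 19.6 CPM in WNT, and 30.0 and 19.1 CPM in WNT_CPI. Its WNT and WNT_CPI libraries overlapped. Thus in CCND1, AXIN2 and AJAP1 CPI-203 went with a level 1.74 to 1.85 lower on the log2 scale without Wnt3a, and 0.25 to 0.65 higher with it. ANP32A, an acidic nuclear phosphoprotein, followed them in part, at 312.1 ± 8.0 CPM in E7, 186.3 ± 7.0 in E7_CPI, 343 ± 13 in WNT and 532 ± 82 in WNT_CPI (SD, n = 2 each), an interaction of 1.38.

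HCN4, the pacemaker channel of the heart, was high only where both agents were present. It was at 20.8 and 23.5 CPM in E7, 23.6 and 26.2 CPM in E7_CPI, 16.9 and 18.1 CPM in WNT, and 75.2 and 86.1 CPM in WNT_CPI. Neither agent alone took a library above 26.2 CPM, and the added log2 differences gave 19.7 CPM. The interaction of HCN4 was 2.03 (SE 0.32, edgeR adjusted p = 0.113 without and 0.00799 with the block). GLCE, an epimerase of heparan sulfate synthesis, was low only in WNT, at 14.3 and 10.1 CPM against 24.1 to 34.0 CPM in the other 6 libraries. CLSTN2, a calsyntenin, was at 2.64 and 2.05 CPM in E7, 21.98 and 20.9 CPM in E7_CPI, 1.24 and 1.01 CPM in WNT, and 43.4 and 27.0 CPM in WNT_CPI, so that Wnt3a went with a lower level without and a higher level with CPI-203.

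**Figure D3:**
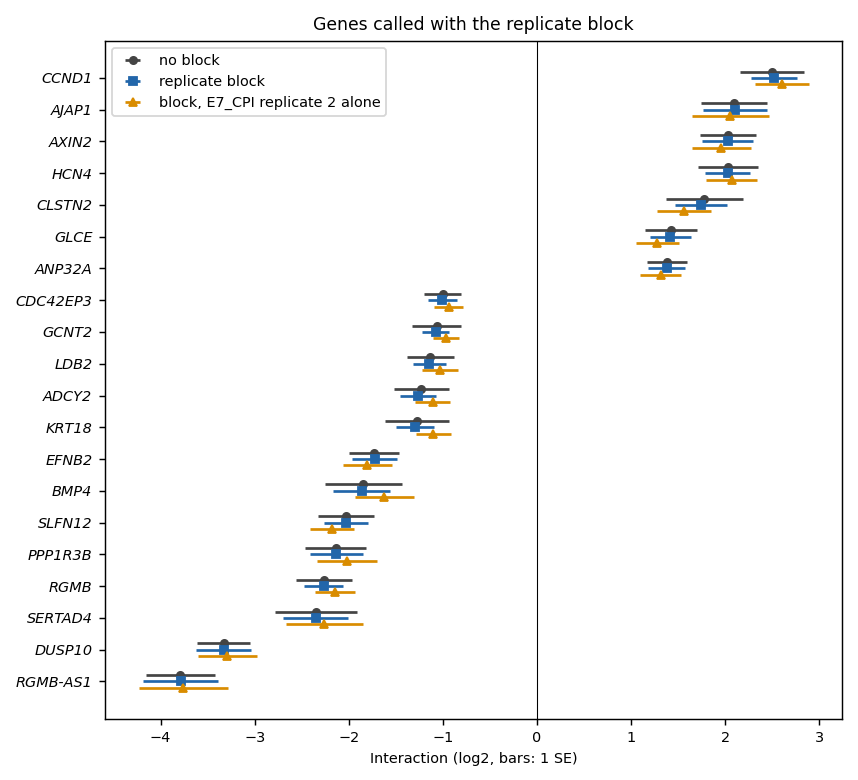
The interaction (log2, with bars of 1 SE) of 20 genes called with the replicate block is drawn from the fit without the block (grey circles), with the block (blue squares) and with the block and E7_CPI replicate 2 alone (orange triangles). The 3 estimates of each gene lie on the same side of 0, from -3.79 for RGMB-AS1 to 2.51 for CCND1 in the block fit.

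The 17 gene lists were then described, each by its calls and its median interaction beside the median of -0.02 over all genes tested. AXIN2 was called higher with the block, though not with E7_CPI replicate 2 alone. Of 24 Wnt feedback and direct targets tested it was the only one called, and 0 were called lower. At an unadjusted p under 0.05 with the block, 6 were higher and 0 lower, where 3.39% and 4.9% of all genes were. The median interaction of these Wnt targets was 0.42, with 15 of 24 above 0, beside 8274 of all 17355 genes tested. Their median Wnt3a difference was 1.43 without and 2.23 with CPI-203. The Wnt targets named next were chosen after their values were seen, and their interactions were not called. NKD1, an inhibitor of Dishevelled, was at 7.86 and 6.88 CPM in E7, 13.5 and 14.2 CPM in E7_CPI, 32.8 and 27.8 CPM in WNT, and 111 and 107 CPM in WNT_CPI (interaction 0.94, edgeR adjusted p = 0.209 with the block). TCF7, a DNA-binding partner of beta-catenin, had an interaction of 0.84, and SP8 one of 1.07. SP5, another target, was at 0.0715 to 0.165 CPM in the 4 libraries without Wnt3a, at 78.3 and 90.8 CPM in WNT, and at 104 and 64.2 CPM in WNT_CPI, so that its groups with Wnt3a overlapped. The interaction of SP5 was -0.93 (SE 1.14). LEF1 was at 21.5 and 14.1 CPM in WNT and 67.2 and 43.2 CPM in WNT_CPI, with an interaction of 0.54. APCDD1, at 21.0 and 24.3 CPM in WNT and 17.3 and 15.5 CPM in WNT_CPI, had one of -0.39.

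Among 37 Wnt receptors, ligands and antagonists, 0 were called in either fit, and at an unadjusted p under 0.05 with the block 3 were higher and 5 lower (median -0.05). SHISA2, which holds back maturation of Frizzled and FGF receptors, was at 31.1 and 23.4 CPM in E7, 9.91 and 10.4 CPM in E7_CPI, 2.16 and 1.15 CPM in WNT, and 8.99 and 8.49 CPM in WNT_CPI. Its interaction was 3.82 (SE 0.82, edgeR adjusted p = 0.692 without and 0.0973 with the block). Of 19 primitive streak and early mesoderm genes, 0 were called in either fit and 2 were lower at an unadjusted p under 0.05 with the block (median 0.29, and -0.11 with the block and E7_CPI replicate 2 alone). One of them, EOMES, which specifies mesendoderm, was at 0.262 and 0.0955 CPM in E7, 1.92 and 1.70 CPM in E7_CPI, 38.7 and 24.0 CPM in WNT, and 39.7 and 30.6 CPM in WNT_CPI. Its groups with Wnt3a overlapped, and its interaction of -3.15 (SE 1.60) came with counts near 0 in E7. TBXT, the Brachyury gene, was at 0.262 and 0.167 CPM in E7 and 0.0274 and 0.0279 CPM in E7_CPI. It was at 3.33 and 2.71 CPM in WNT and 1.30 and 0.900 CPM in WNT_CPI. Its interaction was 1.36 (SE 2.40), with counts near 0 in E7_CPI. The 9 HOX and CDX genes tested had a median of -0.44, with 0 called in either fit, and 2 higher and 1 lower at an unadjusted p under 0.05 with the block. That median rests on very low levels without Wnt3a. The summed level of these genes was 2.05 CPM in E7, 2.47 in E7_CPI, 14.0 in WNT and 55.7 in WNT_CPI.

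The BMP list held 2 of the called genes, a co-receptor and a ligand. Like the other lists it was chosen with earlier results of these data known, so its calls beside the background are a description only. BMP4 was not called without the block, nor with the block and E7_CPI replicate 2 alone. Of 28 BMP pathway genes with the RGM co-receptors, RGMB and BMP4 were called lower with the block and 0 higher (median 0.01, and -0.02 with the block and E7_CPI replicate 2 alone), where 0.0749% of all genes were called lower. At an unadjusted p under 0.05, 5 were lower and 1 higher, beside 4.9% and 3.39% of all genes, the background also for the lists that follow. ID2, a target of BMP signalling, had an interaction of -0.95 and an edgeR adjusted p of 0.083 with the block. Of the 28 BMP pathway genes, 15 had an interaction above 0, so the list as a whole was not shifted lower. In the FGF and MAPK feedback list, DUSP10 was called lower in both fits of 28 genes tested, and 4 genes were lower and 1 higher at an unadjusted p under 0.05 with the block (median -0.20). Of 24 D cyclins, CDKs and CDK inhibitors, CCND1 was called higher with the block, and at an unadjusted p under 0.05 1 was higher and 2 lower (median -0.07, and 0.04 with the block and E7_CPI replicate 2 alone). The other D cyclins had negative interactions, -0.80 for CCND2 and -0.51 for CCND3, which were not called in either fit. Of 22 Nodal and Activin pathway genes 0 were called (2 lower at an unadjusted p under 0.05 with the block, median -0.23).

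The epithelial, immediate early and pluripotency lists had medians below that of all genes. Among 23 epithelial and mesenchymal genes, KRT18 was called lower with the block and 7 were lower and 0 higher at an unadjusted p under 0.05 (background 4.9% of genes lower). The median was -0.45, and 2 of 23 were above 0, beside 8274 of all 17355 genes tested. KRT8, the partner of KRT18, was at 221 and 359 CPM in E7, 835 and 786 CPM in E7_CPI, 283 and 471 CPM in WNT, and 299 and 442 CPM in WNT_CPI (interaction -1.51, edgeR adjusted p = 0.0745 with the block). Of 20 immediate early and AP-1 genes, 0 were called and 4 were lower at an unadjusted p under 0.05 with the block (median -0.33). Among 23 pluripotency genes 0 were called, with 1 higher and 4 lower at an unadjusted p under 0.05 with the block (median -0.32). DPPA4 came nearest, with an interaction of -0.85 and an edgeR adjusted p of 0.0502 with the block: its level was 1057 and 1067 CPM in E7, 239 and 260 CPM in E7_CPI, 969 and 1015 CPM in WNT, and 117 and 141 CPM in WNT_CPI. In the fit that both added the block and kept E7_CPI replicate 2 alone, the medians of these 3 lists were -0.25, -0.20 and -0.10. The 18 neural and neuroectoderm genes had 4 higher and 1 lower at an unadjusted p under 0.05 with the block and 0 called (median 0.12, and 0.47 with the block and E7_CPI replicate 2 alone). Of 19 BET, P-TEFb and inhibitor response genes 0 were called and 1 was lower at that p (median -0.02), and of 18 p53 targets 0 were called and 2 were higher (median -0.04, and 0.19 in that same alternative). The tested markers of trophoblast and amnion (10), fibroblast (6) and blood and endothelium (6) had medians of -0.50, -0.13 and 0.29 (-0.32, 0.23 and 0.09 in that alternative) and 0 calls, with 1 trophoblast marker lower at an unadjusted p under 0.05 with the block.

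**Figure D4:**
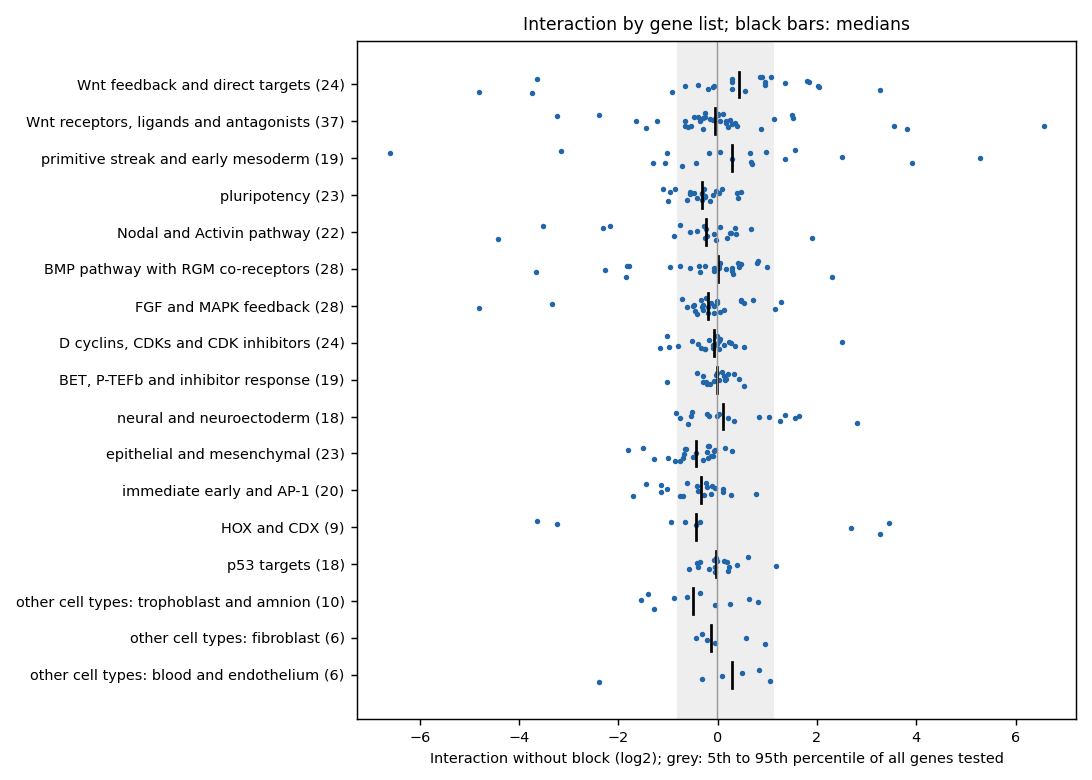
Each point is the interaction (log2, fit without the block) of 1 tested gene of the list named at the left, with the number tested in parentheses, a black bar at the list's median, a grey line at the median of all genes and grey shading between the 5th and 95th percentiles of all genes (-0.79 to 1.12). The medians lie between -0.50 and 0.42, with Wnt feedback and direct targets highest, and the points far from 0 include genes with counts near 0 in a group.

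No 48 h group had CPI-203 without Wnt3a, so no interaction could be formed there, and mean levels of the 20 genes at 48 h are given side by side, relative to E7 at 24 h. In WNT_CPI_ACT, where CPI-203 had been given on the first day, DUSP10 was 3.96 above E7 on the log2 scale and in WNT_ACT 3.92 above it, against 2.48 in WNT_CPI and 3.67 in WNT at 24 h. RGMB-AS1 was at 2.74 in WNT_CPI_ACT and 2.80 in WNT_ACT, and RGMB at 1.60 and 1.97. HCN4, at 1.86 in WNT_CPI, was at -0.25 in WNT_CPI_ACT and -0.56 in WNT_ACT. CCND1 was at 1.93 in WNT_CPI, 0.73 in WNT_CPI_ACT and 0.30 in WNT_ACT. Gaps of more than 1 between WNT_CPI_ACT and WNT_ACT were found in SERTAD4 (0.18 and 2.44), CLSTN2 (0.44 and -1.72) and EFNB2 (2.59 and 1.44). None of these 48 h differences was tested.

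**Figure D5:**
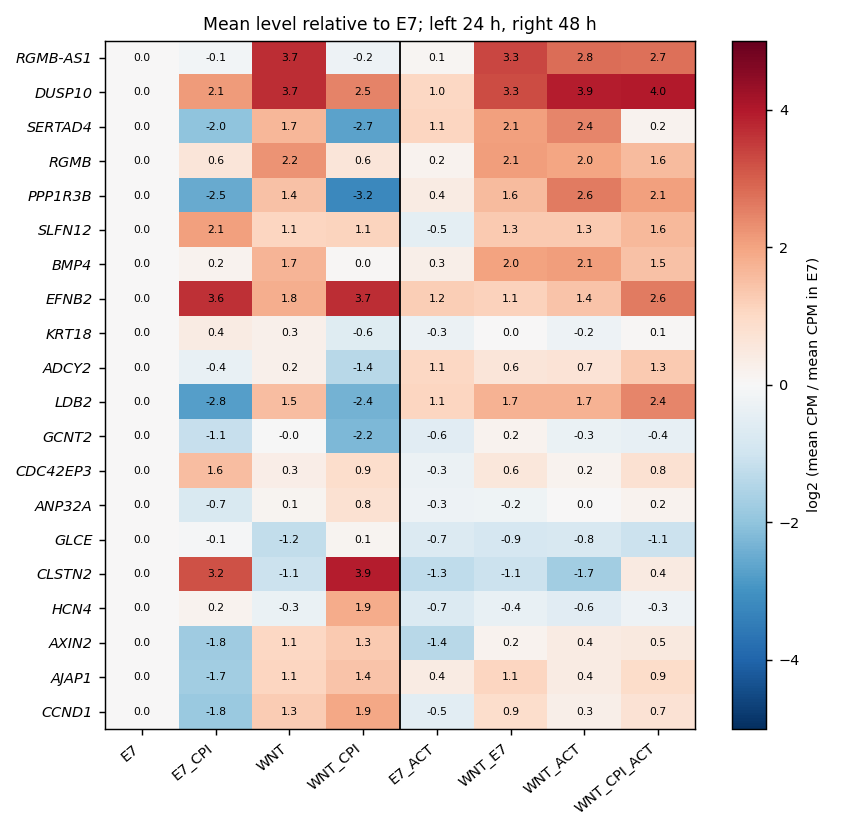
Colour and number give log2 of the group's mean CPM over the mean CPM in E7 for the 20 genes (rows) in the 8 groups (columns), 24 h to the left and 48 h to the right of the black line, each mean over 2 libraries. DUSP10 reads 2.5 in WNT_CPI and 4.0 in WNT_CPI_ACT, and HCN4 1.9 and -0.3.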

How the data were processed

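RNA was measured in 16 libraries of RUES2 cells. The values were raw counts per gene, counted with featureCounts and deposited in 1 table per replicate number, per the submitters' processing notes and the file headers. The aligner, build and strand setting of the RNA counts are not given in the sources used here. The deposited ATAC peak list (14 libraries, none of E7_CPI) holds positions only and was not used. The E7_CPI column of the replicate 1 table was read in file order against the gene order of the replicate 2 table, and 12 cells at its foot were empty. Both tables share 27348 genes.

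Counts were fitted with edgeR 4.0.16 (R 4.3.3; limma 3.58.1): filterByExpr by group, TMM factors of 0.948 to 1.05, and the 2-sided quasi-likelihood F-test fitted jointly to 8 groups (8 residual degrees of freedom). The Benjamini-Hochberg adjustment ran over 17355 genes, called under 0.05. Each group had 2 libraries, and those of E7_CPI, far nearer to each other than other replicates, were counted as independent. Labelled replicate numbers paired the groups other than E7_CPI (correlations of deviations in the report), so a second fit had the number as a block (7 residual degrees of freedom). The common biological coefficient of variation came to 0.271, and to 0.147 once the block was in the model. Levels are CPM from TMM-scaled totals. The scripts were tested on simulated data. Alternatives were DESeq2 1.42.0, limma-trend (prior count 2), other scaling and filters, the 24 h groups alone, and leaving out libraries or an E7_CPI column.

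Genes named are DUSP10, RGMB, CCND1, those called in either fit at a mean of at least 1 CPM (up to 12 a direction without and 15 with the block) and called members of 17 lists. Members, lists and tests were chosen with earlier results of these data known. Of the genes called with the block, 1 is sex-linked and 1 other is not reported here.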

Additional observations from a re-analysis of the deposited data

Results flagged for a closer look

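The Wnt3a difference of DUSP10 and of RGMB-AS1 differed between cells without and with CPI-203 by the test of that difference itself, the interaction in edgeR's quasi-likelihood fit without the replicate block. For DUSP10 the interaction was -3.33 (adjusted p = 0.00369), with WNT above E7 by 3.67 and WNT_CPI above E7_CPI by 0.33 on the log2 scale. For RGMB-AS1 it was -3.79 (adjusted p = 0.00652), with differences of 3.68 and -0.11. Neither gene was called in the same fit to the 24 h groups alone (edgeR adjusted p = 0.0778 for DUSP10 and 0.105 for RGMB-AS1). Both calls were also lost on leaving out E7 replicate 2.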

How the results depend on the processing

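All 760 values of the 20 genes under alternatives kept their direction, and 0 reversed. These genes were all called in these same data and the alternatives reused the same libraries, so this agreement is no separate support. Counts of calls moved more, and where they did the cause was not tested. Counts are given as higher and lower. Without the block (0 and 2), they were 9 and 13 with the replicate block, 0 and 0 with the 24 h groups alone, 14 and 23 with DESeq2, 2 and 3 with limma-trend, and 0 and 1 with E7_CPI replicate 2 alone. Leaving out 1 library without the block gave 0 higher and 0 to 2 lower (0 without E7 replicate 2, 1 without E7 replicate 1 or WNT_CPI replicate 1). With the replicate block (9 and 13), counts were 4 and 5 with the 24 h groups alone, 34 and 69 with DESeq2, 13 and 23 without a filter, 2 and 5 with E7_CPI replicate 2 alone and 1115 and 1334 with the column labelled replicate 1 alone. Leaving out 1 library with the block gave 1 to 8 higher and 3 to 8 lower: 8 and 8 without WNT_CPI replicate 2, and 1 higher with 3 or 4 lower without any other library. Where 1 library of an arm was left, it was assumed to vary like the other groups. The column labelled replicate 1, when alone, was blocked as replicate 1 although it did not share that shift, so its calls are not read as interactions. Of alternatives chosen after the data were seen, both E7_CPI columns with number 2 gave 13 and 26 with the block, the mean of these columns as 1 library 2 and 4 with and 0 and 1 without the block, and the 24 h groups with E7_CPI replicate 2 alone 40 and 95 with and 0 and 0 without it. RLE factors, library totals and a 1 CPM filter in 2 libraries kept every count within 1.5 times. Depth limits genes with few counts: SERTAD4 had 19 and 27 counts in WNT_CPI and DUSP10 31 and 25 in E7, and SP5, EOMES and CDX2 had fewer in E7.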

Other observations

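Some list members whose interaction was not called in either fit had levels a reader may want to see, and they were chosen after their values were seen. CDX2, a posterior homeobox factor, was at 0.0238 and 0.0716 CPM in E7, 0.0823 and 0.0558 CPM in E7_CPI, 3.07 and 1.26 CPM in WNT, and 46.0 and 13.3 CPM in WNT_CPI. Both WNT_CPI libraries were above both WNT libraries, but the spread within each group was wide (interaction 3.26, SE 1.95, edgeR adjusted p = 0.601 with the block). SFRP1, a secreted Wnt antagonist, was at 793 and 735 CPM in E7, 588 and 575 CPM in E7_CPI, 115 and 76.4 CPM in WNT, and 207 and 211 CPM in WNT_CPI. Its level was lower with Wnt3a in both settings, with log2 differences of -2.997 without and -1.48 with CPI-203 (interaction 1.52, adjusted p = 0.454 with the block).

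KDR, a VEGF receptor of early mesoderm, was at 66.7 and 71.6 CPM in E7, 22.7 and 21.9 CPM in E7_CPI, 106 and 147 CPM in WNT, and 19.5 and 19.6 CPM in WNT_CPI. ID1, a target of BMP signalling, was at 6.29 and 14.8 CPM in E7, 5.93 and 5.58 CPM in E7_CPI, 13.3 and 31.3 CPM in WNT, and 2.42 and 4.38 CPM in WNT_CPI. In KDR and ID1 the WNT_CPI libraries were the lowest of the 4 groups, with interactions of -1.07 and -1.84 (edgeR adjusted p = 0.601 and 0.255 with the block). ZIC1, a neural factor, was at 0.137 to 0.352 CPM in 6 libraries and at 1.18 and 1.19 CPM in WNT_CPI (interaction 2.80, adjusted p = 0.382 with the block).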
